A study of Homo sapiens with 4 samples.

Results

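The HOX clusters A to D are 4 stretches of the genome that hold the HOX genes, and they were taken here as fixed windows on hg19: 27130000 to 27250000 on chromosome 7 for HOXA (band 7p15.2, 120 kb), 46600000 to 46810000 on chromosome 17 for HOXB (17q21.32, 210 kb), 54330000 to 54450000 on chromosome 12 for HOXC (12q13.13, 120 kb) and 176950000 to 177060000 on chromosome 2 for HOXD (2q31.1, 110 kb). Every ATAC-seq peak with at least 1 base in a window was a member. ATAC-seq marks open chromatin by letting a transposase insert adapters where DNA is reachable. Merged over the lists, the members formed 91 regions of 87966 in the whole series: 26 in HOXA, 32 in HOXB, 14 in HOXC and 19 in HOXD.

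The cells were H1, an established line of human embryonic stem cells kept on Matrigel without feeders, and each of the 4 groups was 1 library with its own peak list. The control stayed in N2B27 medium with bFGF. The others were moved to a B27 medium with Activin A at 25 ng/ml, Wnt3a at 25 ng/ml, or 25 ng/ml of each, for 6 h, and neither N2 nor bFGF is named for that medium, so ligand and medium cannot be told apart in any comparison with control. All 4 libraries carry the same label of early mesendoderm differentiation, the control included. Because nothing was replicated, groups are described without a test, and the intervals given cover counting error only.

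HOX genes encode homeodomain transcription factors that give cells their position along the body axis from head to tail. The mammalian clusters arose by duplication, so that members with the same number (paralogs, such as HOXA4, HOXB4, HOXC4 and HOXD4) are more alike than neighbours, and genes of low number act nearer the head and are switched on earlier than genes of high number. In pluripotent cells the clusters are largely silent and are a textbook case of bivalent chromatin, where the Polycomb mark H3K27me3 lies over the activating mark H3K4me3. Wnt, FGF and retinoic acid signals are known to start their expression as posterior mesoderm and neural tissue form. In the RefSeq gene order (GRCh38.p14, used for names and order only) the listed HOXA genes run from HOXA2 at the low-coordinate end to HOXA13 at the high end, and HOXB likewise from HOXB1 to HOXB13, while HOXC and HOXD run the other way, from HOXC13 to HOXC4 and from HOXD13 to HOXD1. No hg19 gene positions were used, so no peak was tied to a single gene, and markers of the cell type could not be checked on these lists.

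The promoters show what the members share in sequence, and those with the most CpG dinucleotides in each cluster, with the HOX promoter that had the fewest, are printed to show that range. The RefSeq promoter table (GRCh38.p14, 250 bases before to 50 after each start) held 26 promoters for 20 of the 38 listed genes, HOXC4 and HOXC5 sharing 1, and only 1 each for HOXB and HOXC. Only the 250 bases before the start are shown, 5′ to 3′ on the gene's strand, with each CpG in capitals. The coordinates belong to GRCh38 and cannot be set against the hg19 peak positions.
HOXA13, chr7:27200092-27200341, minus strand: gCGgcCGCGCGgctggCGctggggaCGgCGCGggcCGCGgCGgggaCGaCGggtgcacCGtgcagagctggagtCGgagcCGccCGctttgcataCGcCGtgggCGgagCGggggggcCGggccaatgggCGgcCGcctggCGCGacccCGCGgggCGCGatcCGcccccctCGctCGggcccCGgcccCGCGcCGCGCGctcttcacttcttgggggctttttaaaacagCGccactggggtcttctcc
HOXB1, chr17:48531012-48531261, minus strand: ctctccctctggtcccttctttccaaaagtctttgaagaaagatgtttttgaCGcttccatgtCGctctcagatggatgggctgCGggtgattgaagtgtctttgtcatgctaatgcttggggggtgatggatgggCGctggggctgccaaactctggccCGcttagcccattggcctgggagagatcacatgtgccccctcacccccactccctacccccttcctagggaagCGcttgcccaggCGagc
HOXC4 and HOXC5, chr12:54016638-54016887, plus strand: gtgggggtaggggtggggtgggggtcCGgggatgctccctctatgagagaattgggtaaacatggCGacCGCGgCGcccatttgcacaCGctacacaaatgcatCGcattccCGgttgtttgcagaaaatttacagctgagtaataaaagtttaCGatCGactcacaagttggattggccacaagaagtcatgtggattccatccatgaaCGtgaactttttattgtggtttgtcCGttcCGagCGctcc
HOXD1, chr2:176188418-176188667, plus strand: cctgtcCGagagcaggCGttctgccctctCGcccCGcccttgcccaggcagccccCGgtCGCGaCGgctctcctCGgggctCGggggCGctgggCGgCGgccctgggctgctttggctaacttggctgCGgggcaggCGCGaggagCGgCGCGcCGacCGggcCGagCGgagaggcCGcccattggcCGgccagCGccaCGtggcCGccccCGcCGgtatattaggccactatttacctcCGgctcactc
HOXA3, the fifth of its 7 starts, chr7:27119596-27119845, minus strand: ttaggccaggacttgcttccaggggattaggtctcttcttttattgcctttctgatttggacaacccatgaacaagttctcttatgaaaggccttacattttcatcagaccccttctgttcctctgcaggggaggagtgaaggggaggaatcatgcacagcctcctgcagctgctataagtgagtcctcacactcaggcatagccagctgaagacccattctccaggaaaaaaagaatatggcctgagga

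CpG was dense in most of the 26 HOX promoters held. Of these, 16 belong to HOXA, 7 of them starts of HOXA3, and 8 to HOXD, so the shares below count promoters and describe mainly HOXA. The full promoters held 44 CpG in HOXA13, 36 in HOXD1, 15 in HOXC4/HOXC5, 11 in HOXB1 and 0 at the fifth start of HOXA3. The ratio of observed to expected CpG had a median of 0.85 over the 26 HOX promoters (range 0 to 1.27) and of 0.58 over the 35116 promoters of the table. It was above 0.6, a common threshold for CpG islands, in 21 of 26 HOX promoters (80.8%) and in 48.8% of all. The highest was HOXA9 (1.27), and HOXD4 (0.24) was the lowest after HOXA3. GC content did not stand apart in the same way, at a median of 58.0% in HOX and 58.7% in all promoters. The TATA box letters TATAAA, searched on both strands, were in 5 of 26 HOX promoters (19.2%; HOXA9, HOXD13, 1 of the 7 of HOXA3 and both of HOXA10) and in 11.5% of all. The letters CTTTGAT, a form of the TCF/LEF motif, were in none of the 26 and in 2.62% of all. GTCTAGAC, a form of the SMAD motif, was likewise in none of the 26 and in 0.202% of all. With letters this rare, their absence from 26 promoters does not show a lack of either motif.

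HOX clusters held few peaks in control and after Wnt3a, and many after Activin A, alone or with Wnt3a. There were 12 HOX peaks in the control list, 77 with Activin A, 13 with Wnt3a and 59 with both. The whole lists also differed, with 26223, 75585, 21078 and 58382 peaks in the same order. Against control, HOX peaks were 6.42 times as many after Activin A, where the list was 2.88 times as long, and 4.92 times after both, where the list was 2.23 times as long. After Wnt3a the factors were 1.08 and 0.804. HOX peaks covered 7.56 kb of the 560 kb of windows in control (1.35%), 56.0 kb after Activin A (10%), 7.93 kb after Wnt3a (1.42%) and 44.8 kb after both (8.01%). The genome-wide cover was 0.644%, 1.99%, 0.475% and 1.64%.

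These numbers turned when the lists were cut to equal length. Among the 21078 best-scoring peaks of each list, HOX peaks numbered 9 in control, 5 with Activin A, 13 with Wnt3a and 9 with both. As a share of the list that is 0.0427% (exact 95% interval 0.0195 to 0.0810), 0.0237% (0.0077 to 0.0553), 0.0617% (0.0328 to 0.105) and 0.0427% (0.0195 to 0.0810), and all 4 intervals overlapped. Keeping instead the upper 50% of each list, which leaves the lists unequal, gave 2 HOX peaks in control, 24 for Activin A, 3 for Wnt3a and 20 for both, at 0.843, 3.51, 1.57 and 3.79 times the density of the genome. The order of the peak numbers thus held in the upper part of each list, where the longer lists stay longer, and was lost at equal length. By density in that upper part, both ligands (3.79) and Activin A (3.51) stood close, from 20 and 24 peaks and without intervals. The full lists gave 5.59 (4.25 to 7.21) and 5.63 (4.44 to 7.04) times the genome, and these intervals overlap. Neither order of the pair is shown beyond counting error. The sources used here give no read numbers, and the part of depth in the length of the lists was not tested.

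**Figure D1:**
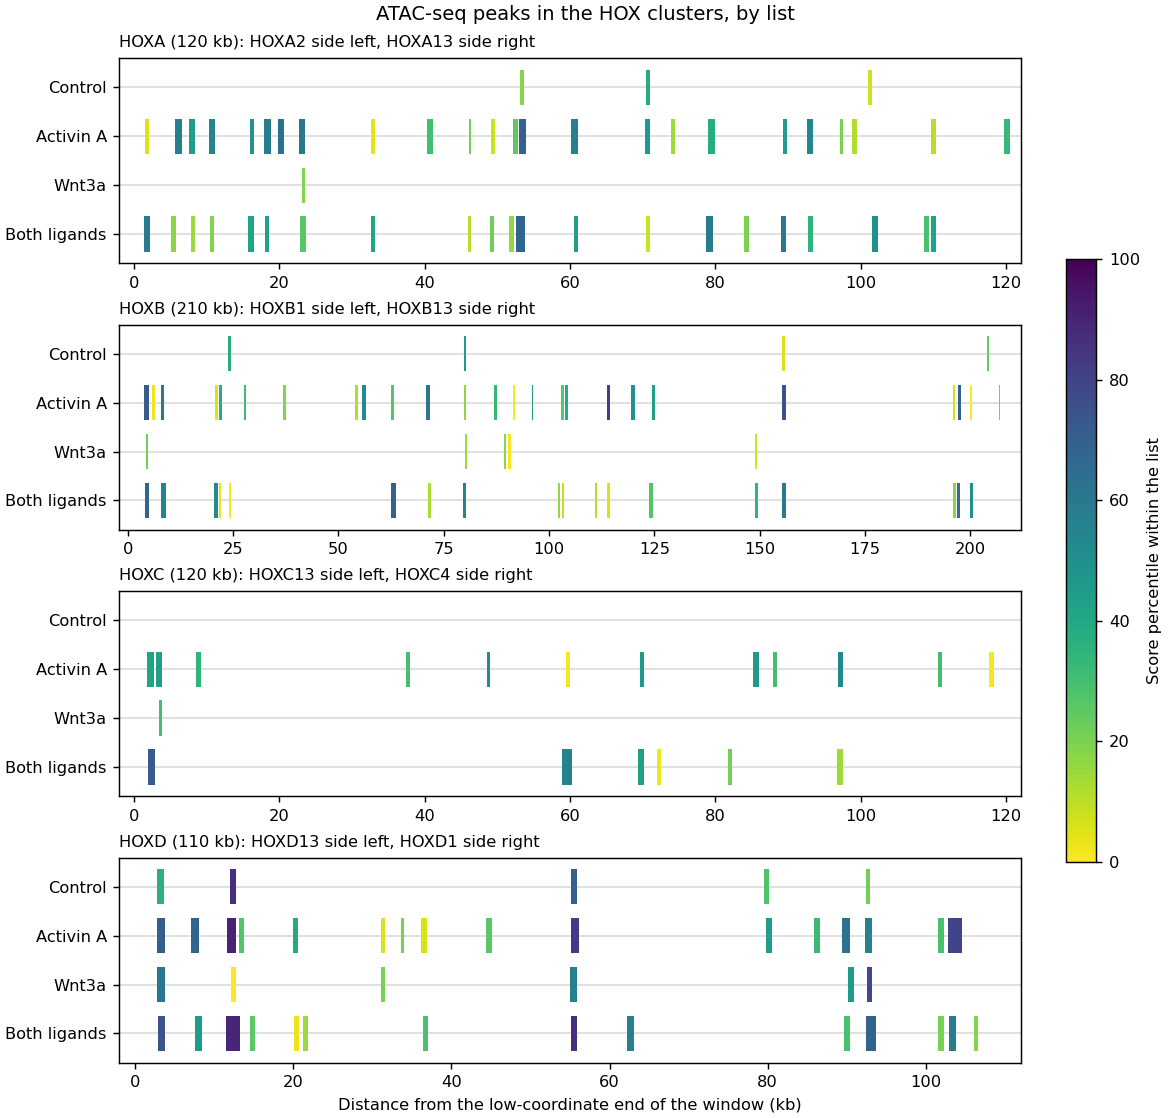
Peaks (blocks, drawn to scale) along the 4 HOX windows in each of the 4 lists. The horizontal axis is the distance in kb from the low-coordinate end of the window, and colour is the score percentile within the list. HOXC has no control peak, and the darkest blocks, at the 90.6th percentile after Activin A and the 89.2nd after both, are in HOXD.

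The clusters differed in how many peaks they held. HOXA, the cluster whose members pattern hindbrain, limb and reproductive tract, had 3 control peaks, 24 with Activin A, 1 with Wnt3a and 21 with both. HOXB, whose members act in hindbrain and blood, had 4, 25, 5 and 18 in that order over a longer window. HOXC had 0, 12, 1 and 6, and HOXD, whose HOXD11 to HOXD13 pattern the limb, had 5, 16, 6 and 14. Per 100 kb, Activin A gave 20.0 peaks in HOXA, 14.5 in HOXD, 11.9 in HOXB and 10 in HOXC, and control gave 2.50, 4.55, 1.90 and 0. HOXD therefore led in control and after Wnt3a (5.45 per 100 kb, against 2.38 in HOXB and 0.833 in each of HOXA and HOXC), while HOXA led after Activin A and after both (17.5, against 12.7 in HOXD). At equal list length HOXA no longer led, with 0 Activin A peaks and 1 after both, where HOXD had 3 and 4. Among the upper 50% of scores HOXA had 8 and HOXD 7 peaks after Activin A, and 5 and 6 after both. Against control the Activin A number was 8 times as large in HOXA, 6.25 times in HOXB and 3.20 times in HOXD. For both ligands the factors were 7, 4.50 and 2.80.

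Pooled over the 4 clusters, HOX windows were denser in peaks than their flanks in every list. Windows of the same length directly on either side held 15 control peaks, 55 with Activin A, 9 with Wnt3a and 41 with both, over a total length that is 2 times that of the HOX windows. Per 100 kb the HOX density was 1.60, 2.80, 2.89 and 2.88 times that of these flanks. Single clusters did not all follow. HOXB in control had 1.90 peaks per 100 kb against 2.38 in its flanks, and HOXC equalled its flanks in control (0) and after Wnt3a (0.833). Against all assembled chromosomes the pooled density was 2.53 times (1.31 to 4.42) in control, 5.63 times (4.44 to 7.04) after Activin A, 3.41 times (1.82 to 5.83) after Wnt3a and 5.59 times (4.25 to 7.21) after both. At equal list length the genome ratio after Activin A was 1.31, and the flank ratio was 1, from 5 HOX and 10 flank peaks. The flank ratio at that length was 1.38 in control, from 9 HOX and 13 flank peaks. It was 2.89 after Wnt3a (13 and 9) and 3.6 after both (9 and 5), so these ratios rest on few peaks. Among the upper 50% of scores the flank ratio was 0.5 in control (2 HOX and 8 flank peaks) and 2 after Activin A (24 and 24). It was 2 after Wnt3a (3 and 3) and 2.86 after both (20 and 14). With windows widened by 20 kb it was 0.963 in control.

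**Figure D2:**
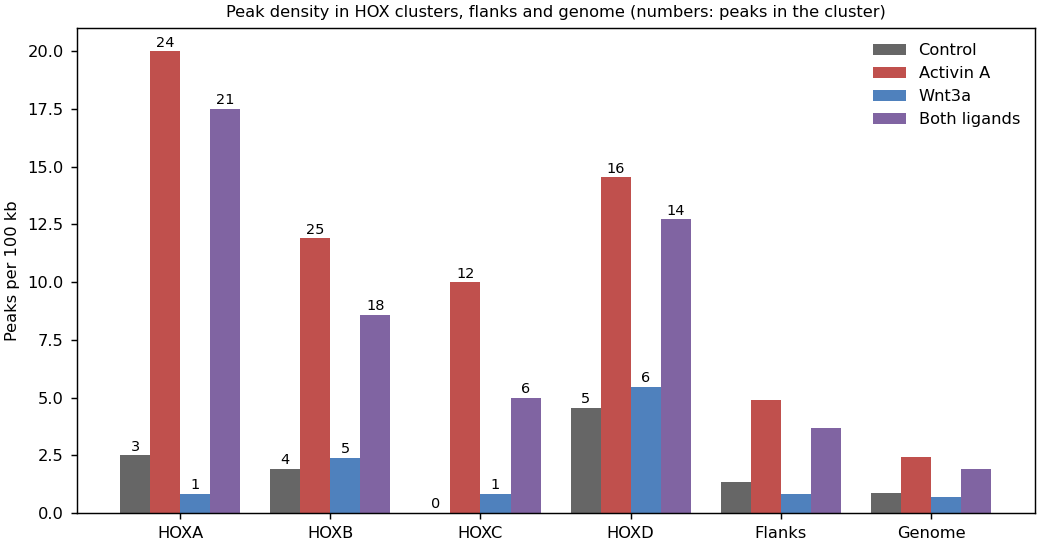
Peaks per 100 kb (vertical axis) in each HOX cluster, in the flanks of equal length pooled over the clusters, and over the assembled genome, by list. Numbers above the bars are peaks in the cluster, from 0 in HOXC in control to 25 in HOXB after Activin A. Each bar is 1 library.

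Most HOX peaks ranked low in their own list. The score is the authors' own value per peak and was used only as a rank within a list, as a percentile at which 50 marks the middle peak. The median HOX percentile was 32.1 in control, 37.9 with Activin A, 20.6 with Wnt3a and 34.7 with both, and 10 of 12, 53 of 77, 10 of 13 and 39 of 59 peaks lay below the 50th. The upper 25% of scores held 1, 4, 1 and 2 HOX peaks (8.33%, 5.19%, 7.69% and 3.39%). In the flanks the medians were 50.9, 47.3, 27.5 and 37.8, above those of the HOX windows in each list.

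HOXD held nearly all the high-ranking peaks. Its highest percentile was 86.6 in control, 90.6 with Activin A, 78.5 with Wnt3a and 89.2 with both. In HOXA the highest were 39.6, 69.5, 18.4 and 67.7, and no HOXA or HOXC peak of any list reached the 75th. Outside HOXD only 1 peak did so, in HOXB after Activin A (80.6). Peaks were counted once per list, so some in HOXD were the same region. The region 176961468 to 176963710 reached the 75th in control, after Activin A and after both. The region 177005052 to 177006170 did so after Activin A and after both. The HOXC maximum was 53.4 after Activin A and 71.8 after both, with a single Wnt3a peak at 30.0. The medians of HOXA, HOXB and HOXD were 18.2, 30.7 and 36.3 in control. After Activin A the 4 medians, HOXA to HOXD, were 41.1, 33.0, 38.2 and 41.7, and after both they were 35.5, 30.9, 32.2 and 37.2. After Wnt3a they were 18.4, 15.0, 30.0 and 51.2, with 1 peak each in HOXA and HOXC. HOXD had the highest median in each list, nearest to that of another cluster after Activin A (HOXA) and farthest after Wnt3a.

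**Figure D3:**
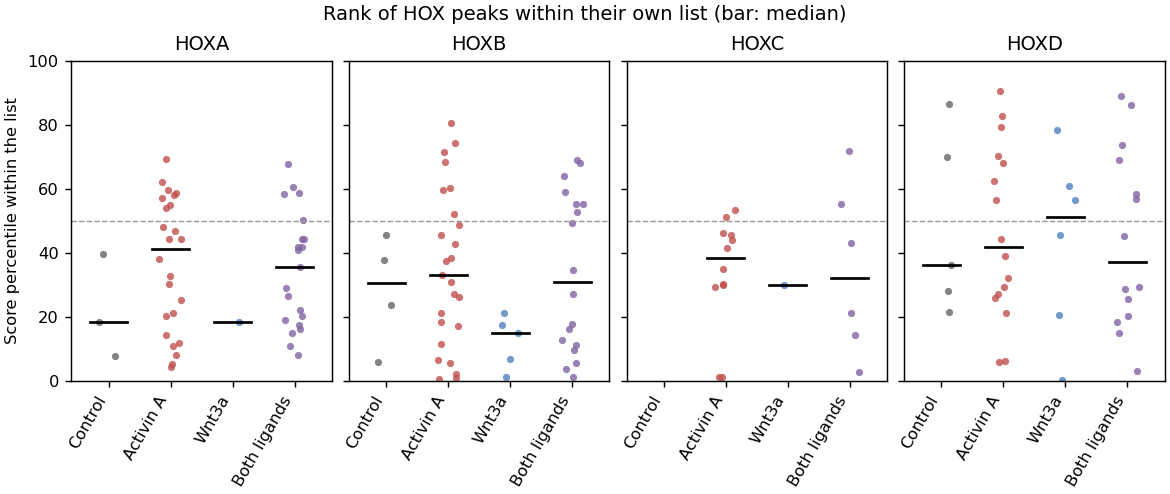
Score percentile within the list (vertical axis) of each HOX peak (points) by cluster and list, with the median (bar) and the middle of the list (dashed line at 50). Most points lie under the dashed line, and of the 8 peaks at or above the 75th percentile 7 are in HOXD, some of them the same region in different lists.

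A treated region was called gained when the control list had no peak in the merged region. After Activin A 66 of 75 HOX regions were gained (88.0%, 78.4 to 94.4), against 70.0% of all Activin A regions. After Wnt3a it was 8 of 13 (61.5%, 31.6 to 86.1) against 33.1%, and after both 48 of 58 (82.8%, 70.6 to 91.4) against 62.5%. By cluster, the Activin A gains were 21 of 23 regions in HOXA, 23 of 25 in HOXB, 12 of 12 in HOXC and 10 of 15 in HOXD. After both they were 17 of 20, 15 of 18, 6 of 6 and 10 of 14. HOXD thus had the largest share of treated regions that control also held, and HOXC, with no control peak, could only gain.

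The share of gained regions was then read within 4 ranges of the score percentile, 25 points each and chosen after the data were seen, since regions of low score were more often absent from control over the whole list. The score is that of the treated library, so the ranges are not independent of the gain. After Activin A, 21 of 22 HOX regions in the lowest range were gained (95.5%) against 95.3% of all regions of that range. In the next ranges it was 27 of 29 (93.1%) against 90.7%, 16 of 20 (80.0%) against 73.1%, and 2 of 4 (50.0%, 6.76 to 93.2) in the highest against 22.1%. After both ligands the 4 ranges gave 20 of 22 (90.9%) against 91.7%, 16 of 16 (79.4 to 100) against 83.8%, 12 of 18 (66.7%) against 61.7%, and 0 of 2 (0 to 84.2) against 15.2%. In each range the interval of the HOX share held the share of all regions, but the highest ranges hold only 4 and 2 HOX regions and their intervals are too wide to show a difference. The 13 Wnt3a regions were not divided in this way. At equal list length the gained share was 3 of 5 after Activin A (60.0%, 14.7 to 94.7) against 32.2% of all regions, and 5 of 9 after both (55.6%, 21.2 to 86.3) against 32.9%.

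**Figure D4:**
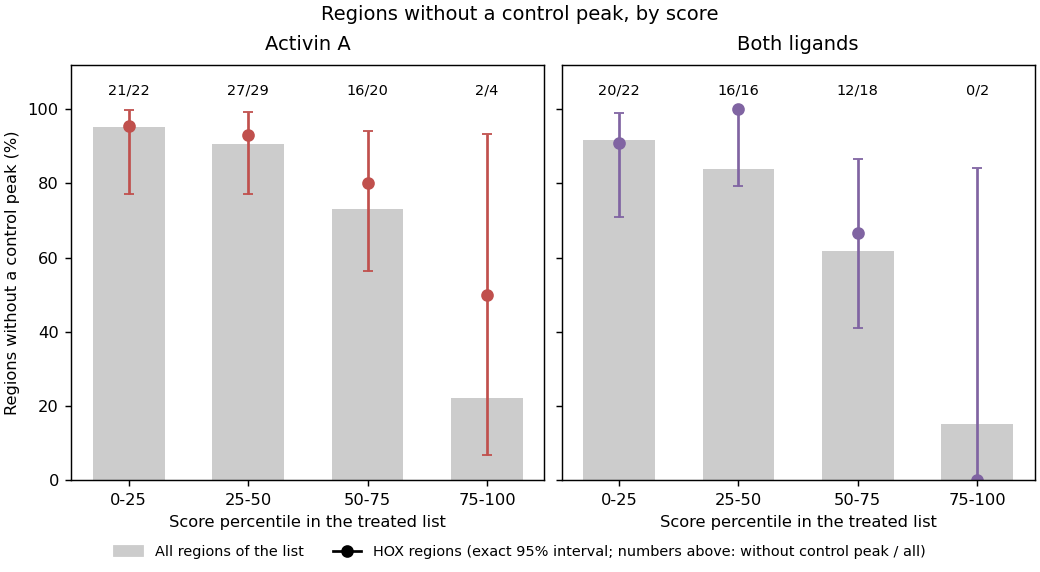
Percent of regions without a control peak (vertical axis) by range of the score percentile in the treated list, for HOX regions (points, with exact 95% intervals and the numbers above) and all regions of the list (grey bars). The HOX and whole-list shares are 95.5% and 95.3% in the lowest Activin A range and 50.0% and 22.1% in the highest, where only 4 HOX regions enter.

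Few HOX regions were open in all groups. A peak in all 4 lists was found in 5 of 91 HOX regions (5.49%, 1.81 to 12.4) against 14.8% of all regions, and 4 of the 5 were in HOXD, the other in HOXB. The commonest pattern was Activin A with both ligands and neither of the others, at 34 of 91 (37.4%, 27.4 to 48.1) against 21.9% of all regions. It made up 14 of 26 regions in HOXA, 11 of 32 in HOXB, 4 of 14 in HOXC and 5 of 19 in HOXD. The 5.49% and the 37.4% were not set against regions of like score. Most HOX peaks ranked low, and regions of low score more often lacked a control peak over the whole list. Regions of the Activin A list alone came next, at 27 (29.7%) against 30.1%, then those of both ligands alone at 10 (11.0%) against 12.4%. Just 1 region was in control alone and 2 were in Wnt3a alone, all 3 in HOXB.

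Loss of control regions depended on how the lists were cut. Of the 12 control regions 3 had no Activin A peak (25.0%, 5.49 to 57.2) against 11.5% of all control regions, 7 had no Wnt3a peak (58.3%, 27.7 to 84.8) against 46.5%, and 2 had no peak after both (16.7%, 2.09 to 48.4) against 15.2%. All 3 intervals held the background. At equal list length 7 of 9 control regions had no Activin A peak (77.8%, 40.0 to 97.2) against 30.2% of all, an interval above the background. After both, 5 of 9 had none (55.6%, 21.2 to 86.3) against 30.9%. These backgrounds were not matched on score, and the 9 control HOX peaks had a median percentile of 22.6 in the cut list. The cut kept only Activin A peaks scoring at least 195.09. A region counted as lost can thus hold a weaker Activin A peak, as 176952777 to 176953797 in HOXD does (score 184.51). With an overlap of 50% of each peak required, 6 of 12 control peaks had no counterpart after both (50.0%, 21.1 to 78.9) against 34.7%. In the full lists the 3 HOXA control regions all lacked a Wnt3a peak, as did 3 of 4 in HOXB and 1 of 5 in HOXD.

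The 4 HOXD regions open in all groups lay at both ends and in the middle of the cluster. The first, 176952777 to 176953797, on the HOXD13 side, was at the 36.3rd percentile in control, the 70.4th after Activin A, the 60.8th after Wnt3a and the 73.6th after both. The widest HOX region, 176961468 to 176963710 (2243 bp), had the highest rank in 3 lists (86.6, 90.6 and 89.2 in control, Activin A and both) but was almost the weakest of the Wnt3a list (0.152). The region with the highest mean rank in the cluster, 177005052 to 177006170, stood at 70.0, 82.7, 56.7 and 86.2 in control, Activin A, Wnt3a and both. The fourth, 177042344 to 177043696, on the HOXD1 side, went the other way from the widest one, at 21.5 in control, 56.4, 78.5 after Wnt3a and 69.0. The shared region in HOXB, 46679601 to 46680541, stood at 45.5, 17.0, 15.0 and 55.3.

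Percentiles of lists of unequal length are not comparable, so these 5 regions were also ranked among the 13016 regions that had a peak in all 4 lists. The widest HOXD region was then at 74.3 in control, 51.3 with Activin A, 0.104 with Wnt3a and 55.6 with both. The one on the HOXD1 side was at 9.05, 3.51, 67.1 and 15.3. Among regions open in every group, the first therefore ranked lowest and the second highest in the Wnt3a library, which is also the library with the shortest list. The middle region moved less, at 48.4, 26.2, 40.6 and 46.2. The region on the HOXD13 side was at 16.9, 9.58, 44.8 and 20.2, and the HOXB region at 23.5, 0.419, 8.62 and 6.84. Activin A gave the lowest of the 4 ranks in 4 of these 5 regions, the exception being the widest.

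**Figure D5:**
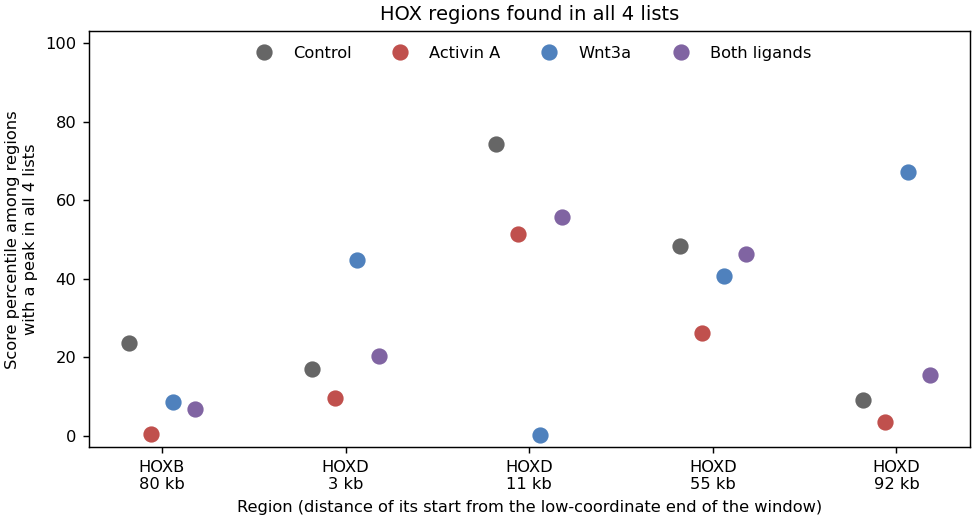
Score percentile (vertical axis) of the 5 HOX regions with a peak in every list, ranked among the 13016 such regions of the genome, by list (colours). The horizontal axis gives each region by its distance from the low-coordinate end of its window. In the widest HOXD region, the second of that cluster from the left, the Wnt3a point is the lowest (0.104), and in the last it is the highest (67.1).

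Along HOXA, peaks after Activin A and after both ligands were spread over the cluster. Of 12 bins of 10 kb, 3 held a control peak, 11 an Activin A peak, 1 a Wnt3a peak and 12 a peak after both. The longest stretch without a peak was 53.1 kb in control, 10.3 kb after Activin A, 12.7 kb after both and 96.4 kb after Wnt3a. The 3 bins nearest HOXA2 had 3, 3 and 2 Activin A regions, 3, 3 and 1 after both, and none in control. On the HOXA2 side of the middle lay 14 of 24 Activin A peaks and 12 of 21 after both.

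Within HOXA the widest region, 27181665 to 27183872 (2208 bp), also had the highest mean rank of those that control held. It was at the 18.2nd percentile in control, the 69.5th after Activin A and the 67.7th after both, with no Wnt3a peak. The only HOXA region with a Wnt3a peak, 27152644 to 27153647, was at 59.7 with Activin A, 18.4 with Wnt3a and 26.5 with both, and absent from control. The highest mean rank belonged to a region seen only after Activin A, 27149828 to 27150676 (62.3), followed by 27218972 to 27219807 (44.3 after Activin A, 60.5 after both). Regions of 1 list were otherwise weak. After Activin A alone the next was 27249735 to 27250510, which crosses the end of the window (32.9), and after both ligands alone they were 27238757 to 27239358 (29.0) and 27213871 to 27214580 (20.2).

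In HOXB more of the Activin A peaks lay on the HOXB1 side of the window's middle, while Wnt3a and control had too few peaks to contrast. The spacing of the genes within the window was not used, so a split of the window is not a split of the genes. On the HOXB1 side of the middle lay 17 of 25 Activin A peaks, 10 of 18 after both, 4 of 5 after Wnt3a and 2 of 4 in control. A stretch of 39.6 kb after Activin A (46756302 to 46795942) and of 39.7 kb after both had no peak, on the HOXB13 side, and the longest empty stretch was 75.03 kb in control and 75.2 kb after Wnt3a. Peaks took up 14 of 21 bins after Activin A, 11 after both and 4 each in control and after Wnt3a.

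The highest mean rank in HOXB was at 46796839 to 46797796, beyond the empty stretch (68.3 after Activin A, 64.0 after both). It was followed by 46607934 to 46608942 (59.6 and 55.4) and by 46603935 to 46605101, the 1 HOXB region in all 3 treated lists and not in control (71.6 after Activin A, 21.2 after Wnt3a, 68.1 after both). The last 2 lie within 10 kb of the window's HOXB1 end. The single region of control alone, 46804043 to 46804523, was at 23.6. Regions of Wnt3a alone were 46689389 to 46689881 (17.6) and 46690359 to 46690955 (1.07), lying close together. Activin A alone had 46655670 to 46656657 (52.0) and 46719494 to 46720458 (48.6), both ligands alone 46702102 to 46702702 (16.2) and 46710964 to 46711474 (11.3). The widest HOXB region, 46723819 to 46725157 (1339 bp), was at 42.7 after Activin A and 27.0 after both. A region outside the naming rule, 46713655 to 46714414, chosen after its values were seen, held the highest HOXB percentile, 80.6 after Activin A, and 5.59 after both.

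HOXC was the emptiest cluster in control. No control peak lay in its 120 kb or in flanks of the same length, the nearest being 160 kb below and 145 kb above the window. A single Wnt3a peak lay on the HOXC13 side. After Activin A, 12 peaks took up 8 of 12 bins, with 6 on either side of the middle, and after both ligands 6 peaks took up 6 bins, 4 of them on the HOXC4 side. The region with the highest mean rank, 54331841 to 54332942, was on the HOXC13 side (41.5 after Activin A, 71.8 after both). Next came 54378598 to 54379020 (51.1) and 54415219 to 54415976 (46.1), both in the Activin A list alone. The widest, 54388877 to 54390303 (1427 bp), was at 1.10 after Activin A and 55.4 after both. After both ligands alone there were 54411658 to 54412214 (21.2) and 54401971 to 54402550 (2.72).

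HOXD peaks were the most even over the groups. They took up 5 of 11 bins in control, 9 with Activin A, 5 with Wnt3a and 8 with both, and their longest empty stretch was 42.3, 23.7, 34.2 and 26.6 kb. The split between the HOXD1 and HOXD13 sides was 7 and 9 after Activin A, 7 and 7 after both, 3 and 3 after Wnt3a, and 3 and 2 in control. The region second in mean rank, 177052815 to 177054566 (1752 bp), near the HOXD1 end, was at 79.5 after Activin A and 58.4 after both and was absent from control and Wnt3a. In all 3 treated lists but not in control was 177039442 to 177040961 (62.6, 45.7 and 29.2 after Activin A, Wnt3a and both). The strongest region after both ligands alone was 177012256 to 177013081 (56.7), then 176964457 to 176965104 (25.4), and after Activin A alone 177035797 to 177036587 (32.2) and 176994391 to 176995130 (26.0).

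Both ligands together were compared with each ligand alone to see what the pair of signals added at these loci. Of the 75 Activin A regions 30 had no peak after both (40.0%, 28.9 to 52.0) against 39.4% of all, and of the 58 regions after both 13 had no Activin A peak (22.4%, 12.5 to 35.3) against 21.0%. These shares were near the background. By cluster, the Activin A regions missing after both were 6 of 23 in HOXA, 11 of 25 in HOXB, 8 of 12 in HOXC and 5 of 15 in HOXD. No interval was taken for single clusters, and whether they differ was not tested. Of the regions after both, 49 of 58 had no Wnt3a peak (84.5%, 72.6 to 92.7) against 67.9%. That background was not matched on score, and 39 of 59 HOX peaks after both lay below the 50th percentile. Of the 13 Wnt3a regions 11 had a peak after Activin A or both (84.6%, 54.6 to 98.1) against 95.7%. In the 45 HOX regions that Activin A and both shared, the percentile was higher after Activin A in 28 and after both in 17. The split over all 44302 shared regions was 29001 and 15301. Percentiles of these lists, of 75585 and 58382 peaks, are not comparable, so neither split shows a change in openness.

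The windows' edges were not free of peaks. After Activin A the nearest peak beyond a window was 0.080 kb away at HOXB, on the HOXB13 side (57.9th percentile), with the last one inside 2.88 kb from the edge (21.1st). At HOXA the nearest peak outside was 1.84 kb away on the HOXA2 side (49.2nd percentile) and the first inside 1.52 kb (5.14th).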

How the data were processed

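ATAC-seq peak lists of 4 H1 libraries, 1 per group, were analysed, with groups taken from the labels. The submitters' processing notes name hg19 as the build, and Bowtie2 2.2.2 and CASAVA 1.8 as tools. The peak caller, its settings, duplicate removal and read shifting are not given in the sources used here, nor is depth, so how many weak peaks each list holds may reflect depth. The deposited score (lowest value 50.03 to 51.09 by list) is the authors' value within 1 library and was ranked only within its list.

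Peaks overlapping by 1 base or book-ended were merged over the 4 lists on all chromosomes. Shares carry exact Clopper-Pearson 95% intervals. Chromosome lengths came from GenomeInfoDb 1.38.1 and bands from circlize 0.4.16. Merging and window counts were tested on simulated data. Python 3.11.15, numpy 2.4.6, pandas 2.3.3, scipy 1.17.1 and matplotlib 3.10.9 were used. The members and windows were chosen with earlier results of these data known, and the score ranges and motifs were chosen after seeing the data. Regions were named by a rule: per cluster the 3 of highest mean percentile, the widest, up to 3 in all treated lists but not control, up to 3 in control alone, and up to 2 of each single list. Other regions named were chosen after their values were seen. Alternatives changed list length, score threshold, overlap, merging distance, window width and the lists used.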

Additional observations from a re-analysis of the deposited data

How the results depend on the processing

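Of 106 alternative values of the summary results 70 stayed within their interval or within 1.5 times, and 36 moved. For peak numbers of single clusters 38 stayed and 26 moved. Taking peak centres, absence within 1 kb and merging of nearby peaks moved none of the values run. Among the upper 50% of scores, where fewer peaks enter by construction, HOX peaks numbered 2 in control, 24 with Activin A, 3 with Wnt3a and 20 with both, covering 1.65, 22.3, 2.47 and 20.1 kb, at 0.843, 3.51, 1.57 and 3.79 times the genome's density. The control ratio to flanks was then 0.5, and 0.963 with windows widened by 20 kb. Merged regions then numbered 34, of which 1 was in every list, and 0% of 2 control regions were lost after Activin A or both. At equal list length HOX peaks numbered 5 after Activin A (5.58 kb, 1.31 times the genome, 1 times the flanks) and 9 after both (10 kb, 2.36 times the genome). The median percentile after both was then 14.1, and 24 merged regions were left, 2 of them in every list. Gained shares were 60.0% after Activin A (3 of 5, against 32.2% of all) and 55.6% after both (5 of 9, against 32.9%). Lost shares of control regions were 77.8% (against 30.2%) and 55.6% (against 30.9%), not matched on score. Ranked over regions common to all lists, the 5 HOX regions had a median percentile of 9.58 after Activin A and 20.2 after both. Without the Wnt3a list 8 of 89 regions had a peak in every list. The share over all regions was not taken for these counts in every list, or for loss among the upper 50% of scores. Requiring an overlap of 50% of each peak, 50.0% of control peaks were lost after both, against 34.7% of all. Beyond the construction of each alternative the cause was not tested. No paired analysis was possible because the 4 groups hold a single library each. Depth is unknown for every list, and 12 control and 13 Wnt3a peaks leave wide intervals.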
